A study of Mus musculus with 12 samples.

Results

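Potassium channel genes were followed in lymph nodes of mice, taking every gene whose symbol begins with Kcn in the table of read counts, 99 of 55487 genes. Potassium channels let potassium leave the cell and so hold the membrane potential negative. In lymphocytes that potential is the driving force for calcium entry after antigen recognition, with Kcna3 (voltage-gated) and Kcnn4 (opened by calcium) as the best known channels. In macrophages, loss of potassium is a trigger of the Nlrp3 inflammasome, and in nerve, glia, vessel wall and exocrine glands other members of the family set excitability, tone and fluid secretion.

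The study crossed a tumour with nerve inhibition, with 3 libraries in each of 4 groups and 12 libraries in all, described as biologically independent repetitions. T NDE mice carried B16F10 melanoma cells in the tongue and had the pain-sensing nerves of the tumour-draining node inhibited, NT NDE mice had the inhibited nerves without a tumour, T NC mice had the tumour with the nerves left as they were, and NT NC mice had neither. The labels give neither strain and age nor the way the nerves were inhibited, and they do not say whether a library holds 1 mouse or several, so that p values measure the spread between these libraries. The rule that defines the family does not use the measured values, but Kcnk1 and Kcnt1 were singled out in it with earlier results of these data known.

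Libraries held 16862953 to 24467873 counts. Lymph node identity was plain in all of them, with 6 T cell markers summing to between 852 and 1145 CPM and 6 B cell markers to between 2619 and 3592 CPM (CPM, counts scaled to the size of the library with edgeR's TMM factors). Libraries T NDE 3 and NT NC 3 stood apart by salivary gland RNA, with 18 salivary markers summing to 41784 and 29306 CPM. NT NC 2 held 1584 CPM of them, and the other 9 libraries between 59.9 and 105.6 CPM. Values without these libraries are given where leaving them out turned a named difference or moved it by over 1.5 times, and for Kcnk1 and Kcnt1. Leaving out all 3 of them leaves NT NC 1 alone in its group, so every such value that uses NT NC rests on that library. In bulk RNA, fewer cells of a type and less RNA per cell cannot be told apart.

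The family took 0.0541% to 0.0603% of all counts in a library. Of its 99 members, 50 held enough counts to be tested, 37 held counts but too few, and 12 held 0 counts in all 12 libraries. For those 12, which included Kcna10, Kcnk9, Kcnk18 and Kcne1, a count of 0 over 240450027 counts allows up to 0.0125 CPM (3 counts, counting error only). By class, 20 of 40 voltage-gated pore subunits were tested, 8 of 13 accessory proteins, 6 of 12 calcium- or sodium-activated members, 7 of 15 inward rectifiers, 7 of 14 tandem-pore channels and 2 of 5 non-coding transcripts. Kcnab2, Kcnn4 and Kcna3 together supplied 53.1% of the counts of the family.

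Levels between genes were compared as CPM per kb of exon, the mean CPM over 12 libraries divided by the exon length of the gene. Kcnab2, the cytoplasmic beta subunit that binds voltage-gated channels of the Kcna group, led with 30.3 CPM per kb. Kcna3 followed with 22.5 CPM per kb over an exon length of only 1902 bases, and Kcnn4 with 18.3. Below these 3 came Kcnj8 at 9.67, Kcne4 at 8.21 and Kcnk6 at 7.55 CPM per kb. These 6 members were the ones above 5 CPM per kb, and 18 members were above 1 CPM per kb.

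**Figure D1:**
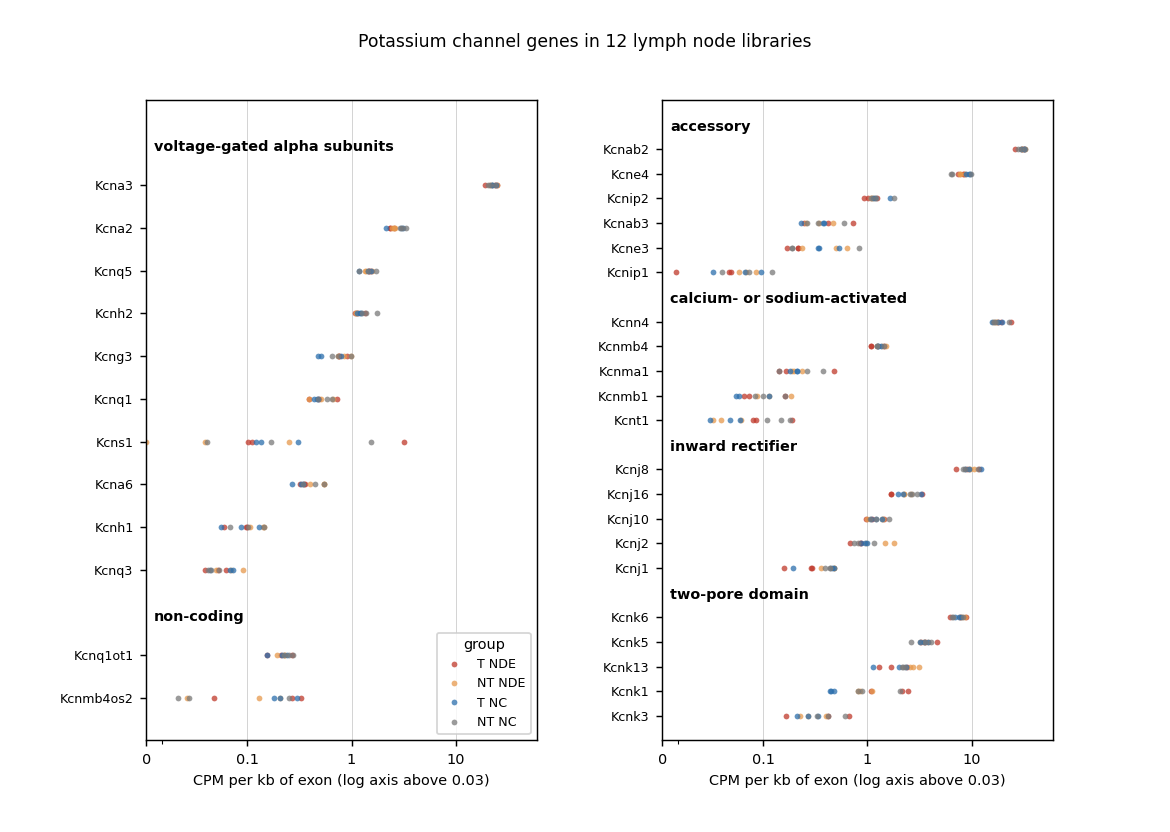
CPM per kb of exon (x axis, log scale above 0.03) of 33 of the 50 tested members in 12 libraries, 1 point per library coloured by group, with members ordered by level within each class. Kcnab2, Kcna3 and Kcnn4 lead at 30.3, 22.5 and 18.3 CPM per kb, and the 2 Kcns1 points far to the right are T NDE 3 and NT NC 3.

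Among voltage-gated pore subunits, Kcna3 was the even background of the node. It measured 47.1, 45.0 and 36.0 CPM in T NDE, 47.2, 42.1 and 40.8 in NT NDE, 42.6, 46.0 and 42.0 in T NC, and 40.4, 44.6 and 39.0 in NT NC. The 4 groups overlapped fully, and the lowest values were those of T NDE 3 and NT NC 3, the libraries with salivary RNA. The log2 difference was -0.03 (SE 0.10) for T NDE against T NC and 0.07 (SE 0.10) for NT NDE against NT NC.

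The gene sits in a row of related genes on mm10 chromosome 3 whose levels differ widely. Kcna3 (107036169 to 107038070) is followed after 63.1 kb by Kcna2 (107101146 to 107115005), a subunit best known from axons, and after a further 68.0 kb by Kcna10. Their levels were 22.5, 2.69 and 0 CPM per kb in that order. The RefSeq promoters of the first pair (GRCm38.p6, 250 bases before to 50 after the start, plus strand, chr3:107035912-107036211 and chr3:107101317-107101616) are shown because these neighbours have different levels. A further reason is that Kcna2 had lower means with inhibited nerves, though it did not pass the test. Capitals mark the GC box GGGCGG, searched on both strands.
Kcna3: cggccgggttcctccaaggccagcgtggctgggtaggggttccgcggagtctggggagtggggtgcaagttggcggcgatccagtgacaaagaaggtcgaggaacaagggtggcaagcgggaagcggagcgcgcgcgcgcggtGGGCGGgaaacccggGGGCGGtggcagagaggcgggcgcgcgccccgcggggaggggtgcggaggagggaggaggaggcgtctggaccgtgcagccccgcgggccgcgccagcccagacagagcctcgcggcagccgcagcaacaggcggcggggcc
Kcna2: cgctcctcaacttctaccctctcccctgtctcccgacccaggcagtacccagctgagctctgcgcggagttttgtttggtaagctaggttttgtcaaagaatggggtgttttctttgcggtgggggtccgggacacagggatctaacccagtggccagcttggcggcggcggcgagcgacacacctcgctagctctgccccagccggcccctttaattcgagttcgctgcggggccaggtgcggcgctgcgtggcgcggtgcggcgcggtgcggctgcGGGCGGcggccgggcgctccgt
The Kcna3 window has a GC content of 75% with 37 CpG dinucleotides and 2 matches, and the Kcna2 window 66.7% with 31 CpG and 1 match. Over 32851 promoters the median GC content was 52.7% with 7 CpG, and 35.7% of them held GGGCGG. Of the 99 members, 72 had an entry among these promoters.

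Kcna2 had lower means with inhibited nerves in both tumour states, but did not pass the test. It measured 27.5, 27.7 and 30.4 CPM in T NDE and 30.9, 30.4 and 28.8 in NT NDE, against 35.3, 37.2 and 25.3 in T NC and 39.7, 36.5 and 34.7 in NT NC. Without a tumour the groups did not overlap, while with a tumour T NC 3 lay below every NDE library. Averaged over tumour state, the log2 difference of NDE against NC was -0.25 (SE 0.08), and edgeR's quasi-likelihood test gave an adjusted p of 0.367 over 17301 genes. It was -0.30 (SE 0.11) for NT NDE against NT NC, and -0.19 (SE 0.11) for T NDE against T NC. The value with a tumour ran from -0.35 without T NC 3 to -0.10 without T NC 2.

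Other voltage-gated members with small p values were Kcna6 and Kcnh2. Kcna6, a relative of Kcna2 in neurons, measured 1.92, 2.08 and 2.13 CPM in T NDE and 1.60, 2.03 and 1.95 in T NC, against 3.27, 2.36 and 3.21 in NT NDE and 3.21, 2.04 and 2.63 in NT NC. With inhibited nerves the 2 groups did not overlap, and with intact nerves they were separated by 0.01 CPM. Averaged over nerve state, T against NT differed by -0.51 on the log2 scale (SE 0.17, edgeR adjusted p = 0.992). For T NC against NT NC alone it was -0.49 (SE 0.24, edgeR adjusted p = 0.649). This value ran from -0.33 without NT NC 1 to -0.78 without the 3 libraries richest in salivary RNA. The latter rests on NT NC 1, the highest NT NC library. Kcnh2, the channel of late cardiac repolarization, measured 5.51, 5.31 and 5.31 CPM in NT NDE against 8.44, 6.71 and 6.06 in NT NC. The groups did not overlap, with a log2 difference of -0.39 (SE 0.16, edgeR adjusted p = 0.424), and the value was -0.25 without NT NC 1. Without the 3 salivary libraries it was -0.65, which rests on NT NC 1, the highest NT NC library. T NC, at 5.81, 5.50 and 5.92 CPM, also lay below NT NC (-0.30, or -0.15 without NT NC 1 and -0.54 without the 3 salivary libraries, again from NT NC 1).

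Kcnq5, a subunit of slow non-inactivating currents, was the third voltage-gated member by level per kb, at 8.99 to 13.3 CPM, and Kcnq1, known from heart and epithelia, lay between 1.59 and 2.95 CPM. Kcng3 and Kcnq3 each entered a comparison with a weak difference. Kcng3, a subunit that needs a partner to conduct, differed by 0.43 (SE 0.25, edgeR adjusted p = 0.881) for T NDE against T NC, from 0.29 without T NC 1 to 0.70 without T NC 2. Kcnq3 differed by 0.59 (SE 0.35, edgeR adjusted p = 0.581) for NT NDE against NT NC, and by 0.37 without NT NDE 2.

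Of the accessory proteins, Kcnab2 measured 146 to 181 CPM in all 12 libraries, and its log2 difference lay between -0.07 and 0.05 in the 4 comparisons of 2 groups. Kcne4, a single-span subunit known to restrain Kcna3 current, measured 25.6, 25.03 and 23.4 CPM in T NC against 17.05, 16.96 and 25.9 in NT NC. NT NC 3 lay above all T NC libraries, so the groups overlapped (log2 difference 0.31, SE 0.14, edgeR adjusted p = 0.629), and the value was 0.54 without that library and 0.20 without NT NC 2. In T NDE, Kcne4 measured 19.7, 22.5 and 21.9 CPM, all below T NC. Kcnip2, a calcium-binding partner of Kcnd channels, differed by -0.30 (log2, SE 0.16, edgeR adjusted p = 0.585) for NDE against NC averaged over tumour state. It differed by -0.18 without NT NC 1 or -0.48 without the 3 salivary libraries. The latter value has NT NC 1 alone in its group.

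Kcnn4 led the calcium- and sodium-activated class. It measured 90.5, 97.5 and 122.5 CPM in T NDE, 87.2, 89.7 and 80.8 in NT NDE, 91.2, 100.4 and 80.3 in T NC, and 86.2, 83.8 and 115.1 in NT NC. The 2 libraries above 110 CPM were T NDE 3 and NT NC 3. T NDE lay above NT NDE in every library, by the widest margin in T NDE 3 and narrowly in T NDE 1. The latter had 90.5 CPM against 89.7 CPM in NT NDE 2. Kcnmb4, a beta subunit of the large-conductance channel Kcnma1, was second per kb at 1.29 CPM per kb and ran from 3.62 to 4.99 CPM. Kcnmb1, the smooth muscle beta subunit of the same channel, had 0.231 to 0.779 CPM.

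A set of channel genes was highest in the libraries richest in salivary RNA. In 5 of 50 tested members both T NDE 3 and NT NC 3 lay above the other 10 libraries, against 3.70% of all tested genes, and in 1 member, Kcna3, both lay below them, against 1.17%. Kcns1, a silent subunit that modifies other voltage-gated subunits, had 8.65 CPM in T NDE 3 and 4.14 CPM in NT NC 3, against 0 to 0.829 CPM in the other 10. Kcnma1, the large-conductance channel of smooth muscle and, with Kcnn4, of salivary acinar cells in the mouse, had 8.07 and 6.41 CPM there, against 2.41 to 4.46 CPM. The other members of this set were Kcnn4, Kcnab3 and Kcnt1. The part of salivary tissue in their values was not tested.

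**Figure D2:**
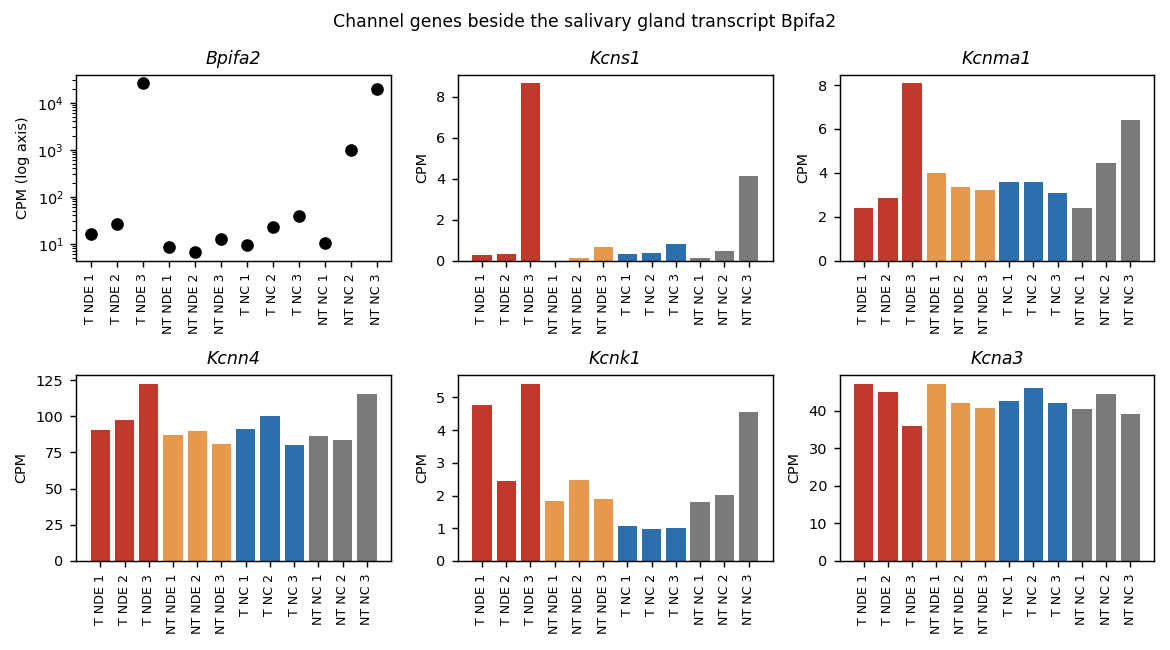
CPM of the salivary transcript Bpifa2 (log axis, black points) and of 5 channel genes (linear axes from 0, bars coloured by group) in each of the 12 libraries. Kcns1 stands at 8.65 and 4.14 CPM in T NDE 3 and NT NC 3 and at most 0.829 CPM elsewhere, while Kcnk1 is also high in T NDE 1, at 4.77 CPM.

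Kcnt1, the sodium-activated channel best known from neurons, went opposite ways with nerve inhibition in the 2 tumour states. It measured 0.768, 0.811 and 1.79 CPM in T NDE against 0.573, 0.462 and 0.296 in T NC, and 0.312, 0.375 and 0.578 CPM in NT NDE against 1.41, 1.04 and 1.72 in NT NC. T NDE lay above T NC in all libraries and NT NDE below NT NC in all libraries. Kcnt1 was 1 of 50 members to separate in opposite directions, against 0.647% of all genes for nerve inhibition and 0.630% for the tumour. Kcnt1 was singled out with earlier results of these data known, so this count is not independent support. The levels rest on 14, 16 and 37 reads in T NDE and 25, 25 and 34 in NT NC. In NT NDE they rest on 6, 7 and 11 reads, and in T NC on 14, 10 and 5. The 2 groups with high values, T NDE and NT NC, thus carried it past the filter on low counts. The log2 difference was 1.31 (SE 0.43, edgeR adjusted p = 0.744) for T NDE against T NC and 0.79 without T NDE 3. For NT NDE against NT NC it was -1.70 (SE 0.43, edgeR adjusted p = 0.216). Without the 3 libraries richest in salivary RNA it was -1.72, with NT NC 1 alone in its group.

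The direct test of that difference, the nerve effect with a tumour minus the nerve effect without one (the interaction), gave 3.01 on the log2 scale for Kcnt1 (SE 0.61, edgeR adjusted p = 0.462). Without the 3 salivary libraries, which leaves NT NC 1 alone in its group, the interaction was 2.52. DESeq2 gave 3.04 with an adjusted p of 0.0264, so the call depends on the tool. The tumour comparisons share libraries with these and gave 1.41 (SE 0.44) for T NDE against NT NDE, or 0.90 without T NDE 3, and -1.60 (SE 0.42) for T NC against NT NC, or -1.61 without the 3 salivary libraries.

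The inward rectifiers were led by Kcnj8, the pore of a nucleotide-gated channel of pericytes and vascular smooth muscle. It ran from 18.0 to 31.5 CPM and overlapped in all 4 comparisons of 2 groups. Abcc9, which forms that channel with it, ran from 89.7 to 142 CPM. Kcnj16 (6.58 to 13.2 CPM) and Kcnj10 (5.22 to 8.78 CPM), which pair with each other in glia and kidney, also overlapped between groups.

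Kcnj2, a strong inward rectifier of muscle, vessels and macrophages, lies 38.2 kb from Kcnj16 on chromosome 11 (111066164 to 111076821). It measured 3.68, 4.72 and 4.59 CPM in T NDE, 8.0, 5.26 and 9.72 in NT NDE, 5.195, 4.76 and 5.39 in T NC and 4.05, 6.34 and 4.44 in NT NC. T NDE lay below NT NDE in every library, and NT NDE held the 2 highest values but overlapped with NT NC. T NDE against NT NDE differed by -0.82 on the log2 scale (SE 0.23, edgeR adjusted p = 1.00), and NT NDE against NT NC by 0.63 (SE 0.23, edgeR adjusted p = 0.367), with 0.42 without NT NDE 3. The interaction was -0.86 (SE 0.32, edgeR adjusted p = 0.658), and T against NT averaged over nerve state gave -0.39 (SE 0.16), or -0.25 without the 3 salivary libraries.

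Kcnj1, the apical channel of the kidney tubule, measured 0.987, 0.964 and 0.532 CPM in T NDE against 1.61, 1.61 and 1.21 in NT NDE. The groups did not overlap (log2 difference -0.84, SE 0.36, edgeR adjusted p = 1.00). T NDE against T NC gave -0.63 (SE 0.36) and -0.39 without T NDE 3, and T against NT averaged over nerve state -0.49 (SE 0.25).

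**Figure D3:**
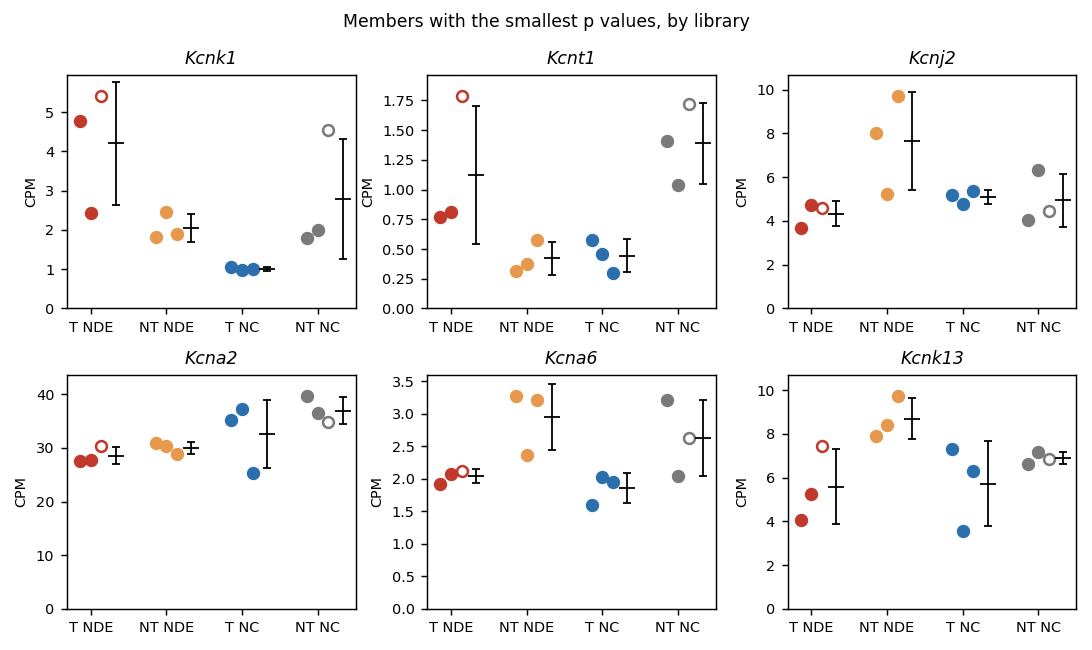
CPM of 6 members in the 4 groups, 1 point per library with the mean and SD (n = 3) beside it; open circles are T NDE 3 and NT NC 3, the libraries richest in salivary RNA. Kcnk1 lies between 0.970 and 1.06 CPM in T NC, below all other libraries, and Kcnt1 is high in T NDE and NT NC.

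Among tandem-pore channels, which carry background potassium currents, Kcnk6 and Kcnk5 were the most abundant per kb. Kcnk6, through which macrophages lose potassium ahead of Nlrp3 activation in the mouse, ran from 25.8 to 36.2 CPM, and Kcnk5, an acid-sensitive channel also found in T cells, from 8.89 to 15.7 CPM. Both overlapped between all groups. Kcnk13, a channel of microglia in the mouse, measured 4.06, 5.22 and 7.45 CPM in T NDE against 7.90, 8.42 and 9.72 in NT NDE, without overlap. T NC had 7.32, 3.56 and 6.28 CPM and NT NC 6.64, 7.17 and 6.87. NT NDE thus lay above all other libraries, while T NDE overlapped with T NC and NT NC. For T NDE against NT NDE the log2 difference was -0.63 (SE 0.25, edgeR adjusted p = 1.00). It was -0.45 for T against NT averaged over nerve state (SE 0.17, edgeR adjusted p = 0.992). Beside it, 6 macrophage markers summed to 710, 779 and 1145 CPM in the same T NDE libraries and to 1121, 1121 and 1160 CPM in NT NDE, and their part in the differences of Kcnk13 and Kcnj2 was not tested.

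Kcnk1, a weakly inward-rectifying tandem-pore channel, showed the smallest p of the family. It measured 4.77, 2.43 and 5.42 CPM in T NDE, 1.82, 2.47 and 1.89 in NT NDE, 1.06, 0.970 and 1.01 in T NC, and 1.80, 2.00 and 4.55 in NT NC. The 3 T NC libraries lay close together below all other 9 libraries. The mean was 4.21 ± 1.57 CPM for T NDE, against 1.01 ± 0.0473 CPM for T NC (SD, n = 3 each), from 48 to 112 reads per library in T NDE and 17 to 26 in T NC. T NDE against T NC differed by 2.05 on the log2 scale (SE 0.38, edgeR adjusted p = 0.203), rank 6 by p among 17301 genes. Without the 3 salivary libraries the difference was 1.82. DESeq2 called it with an adjusted p of 0.00144, and edgeR without a filter on low counts with 0.00430.

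The other comparisons of Kcnk1 share libraries with this one. T NC against NT NC differed by -1.45 (SE 0.38, edgeR adjusted p = 0.465), and by -0.90 without NT NC 3. T NDE against NT NDE differed by 1.03 (SE 0.36, edgeR adjusted p = 1.00), and by 0.81 without T NDE 3. The interaction was 2.48 (SE 0.52, edgeR adjusted p = 0.501), and DESeq2 called it with an adjusted p of 0.00739. Without the 3 salivary libraries, with NT NC 1 alone in its group, it was 1.63. Averaged over tumour state, NDE against NC gave 0.81 (SE 0.26, edgeR adjusted p = 0.355), or 1.01 without the 3 salivary libraries.

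Part of a list of gamma delta and type 17 T cell markers was also higher in T NDE than in T NC. The 12 markers found of 13 summed to 813, 590 and 599 CPM in T NDE, 603, 614 and 607 in NT NDE, 515, 487 and 517 in T NC and 483, 577 and 573 in NT NC. Trdc, the constant segment of the delta receptor chain, had 53.2, 20.2 and 28.7 CPM in T NDE, against 14.9, 10.6 and 8.47 in T NC. Cd163l1, a scavenger receptor of such cells, had 129, 38.8 and 60.7 CPM in T NDE against 19.2, 17.2 and 13.2 in T NC. In 8 of the 12 markers T NDE lay above T NC in every library, and in 4 (Blk, Il17a, Il1r1 and Ccr6) the 2 groups overlapped. Over all tested genes, 9.14% had no overlap between these groups in either direction. The marker list was chosen with earlier results of these data known. T NC lay below all other libraries for Tcrg-V6, Trdc, Sox13 and Cd163l1, as for Kcnk1, and not for the other markers. Blk was the largest part of the sum in every library. NT NC 1 had the lowest sum of all with 1.80 CPM of Kcnk1, and also the lowest Blk, 175 CPM. Its Trdc (17.6 CPM) and Cd163l1 (28.2 CPM) lay above all T NC libraries, and its Il17f (0.169 CPM) and Ccr6 (67.7 CPM) below them. NT NC 3, a library with salivary RNA, had 4.55 CPM of Kcnk1 at a sum of 573. For the sum, Trdc and Cd163l1, T NDE 1 was highest, whereas Kcnk1 was highest in T NDE 3, also rich in salivary RNA. None of the 12 markers was at 0 in all libraries. The part of these cells in the Kcnk1 difference was not tested.

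Kcnk1 lies on mm10 chromosome 8, and its RefSeq promoter (GRCm38.p6, plus strand, chr8:125994852-125995151) is shown as that of the member with the smallest p. It was searched on both strands for the GC box GGGCGG, the half-site AGGTCA that ROR factors of type 17 cells bind, the TATA box TATAAA and the AP-1 motif TGANTCA. None of the 4 was found, so no base is in capitals.
Kcnk1: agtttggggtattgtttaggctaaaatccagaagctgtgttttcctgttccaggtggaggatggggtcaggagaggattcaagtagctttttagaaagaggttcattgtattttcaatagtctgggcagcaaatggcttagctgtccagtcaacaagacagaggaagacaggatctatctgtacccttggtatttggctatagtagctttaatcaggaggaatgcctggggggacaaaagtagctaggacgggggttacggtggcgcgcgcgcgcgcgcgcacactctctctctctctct
Its GC content was 49.0%, with 10 CpG. AGGTCA was present in 16.3% of all promoters, TATAAA in 13.6% and TGANTCA in 7.81%.

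Kcnk3, an acid-sensitive relative, and Kcns1 completed the 5 members with the smallest interaction p. Kcnk3 gave 1.20 (SE 0.61, edgeR adjusted p = 0.728), or 0.68 without T NDE 3. Kcns1 gave 5.19 (SE 2.48, edgeR adjusted p = 0.730), and its sign turned without the 2 salivary libraries (-0.55) and without the 3 (-1.93).

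**Figure D4:**
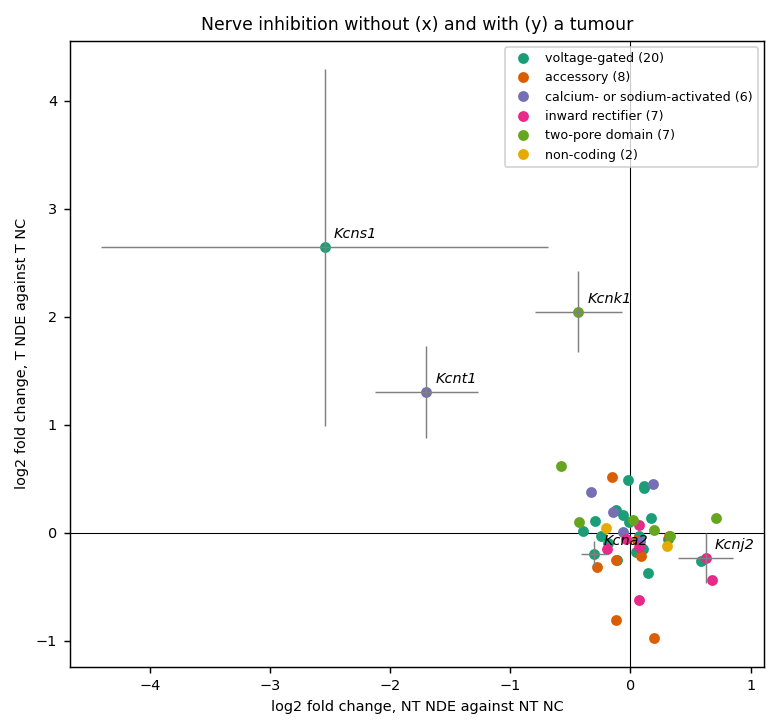
Log2 fold change of the 50 tested members for NT NDE against NT NC (x axis) and T NDE against T NC (y axis), coloured by class, with SE bars on the 5 labelled genes. The 2 comparisons share no library; Kcnk1 (2.05) and Kcnt1 (1.31 and -1.70) stand apart from the cluster around 0, and Kcns1 is placed there by T NDE 3 and NT NC 3.

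Of the non-coding transcripts, Kcnq1ot1, the imprinted antisense RNA of the Kcnq1 locus, ran from 14.4 to 25.7 CPM and Kcnmb4os2 from 0.0417 to 0.659 CPM. Kcnq1ot1 and Kcnq1 share 121 exon bases on opposite strands, and Kcnmb4os2 shares 693 with Kcnmb4. Since the strand setting of the counting is not given, reads there cannot be told apart.

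As a family, the members did not pass the threshold between any groups. With adjusted p under 0.05, edgeR called 0 of 50 in all 7 comparisons, where the share over all genes was 0.00% except for T NDE against NT NDE (0.00578%) and for NDE against NC averaged over tumour state (0.0983%). At an unadjusted p under 0.05 there were 2 members for T NDE against T NC (5.83% of all genes), 4 for NT NDE against NT NC (10.4%), 3 for T NC against NT NC (7.80%), 6 for T NDE against NT NDE (3.70%), 3 for the interaction (7.11%), 2 for NDE against NC (9.20%) and 3 for T against NT (4.50%). The 6 of 50 for T NDE against NT NDE and the 3 of 50 for T against NT were above the share of all genes, and the other 5 counts were below it. DESeq2 called 1 member for T NDE against T NC (44 of 17301 genes) and 2 for the interaction (43 genes). It called 0 members in the other comparisons, where it called 3 to 134 genes. With limma-voom, 0 members were called in all 7, with 0 to 5 genes.

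Groups that did not overlap were found for 5 of 50 members for T NDE against T NC (9.14% of all genes), 6 for NT NDE against NT NC (18.9%), 5 for T NC against NT NC (15%) and 11 for T NDE against NT NDE (8.43%). They included Kcnn4 and Kcnt1, higher in T NDE, and Kcnj2, Kcnk13, Kcna6, Kcnj1, Kcne3, Kcnh1 and Kcnip1, lower in T NDE. Tested members had a median level of 3.31 CPM against 18.5 CPM for all genes, and a median coefficient of variation of 25.2% over the 12 libraries against 11.7%. Their median log2 difference was -0.03 for T NDE against T NC (0.01 for all genes), 0.00 for NT NDE against NT NC (0.00), -0.08 for T NC against NT NC (-0.01) and -0.03 for T NDE against NT NDE (0.00).

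The partners of these channels in calcium signalling and membrane transport, a list of 34 genes that includes Orai1, Stim1, the sodium pump and calmodulin, are described by the same tests. Of the 33 tested, 0 passed in any comparison. At an unadjusted p under 0.05 in edgeR there were 0 for T NDE against T NC, 4 for NT NDE against NT NC, 2 for T NC against NT NC, 0 for T NDE against NT NDE, 4 for the interaction, 2 for NDE against NC and 0 for T against NT. Over all genes 10.4% were under it for NT NDE against NT NC, 7.80% for T NC against NT NC, 7.11% for the interaction and 9.20% for NDE against NC. Orai1, the pore of store-operated calcium entry, ran from 23.3 to 30.9 CPM. Trpm7, a magnesium-permeable channel with a kinase domain, had the smallest p for NT NDE against NT NC, at 159, 164 and 161 CPM in NT NDE against 190, 182 and 183 in NT NC (log2 difference -0.20, SE 0.05, edgeR adjusted p = 0.216). Trpm7 was named after its values were seen, and 18.9% of all genes likewise had no overlap between these groups.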

How the data were processed

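RNA-seq read counts per gene, as deposited by the authors, were used for 12 lymph node libraries; per the submitters' processing notes, HISAT2 2.0 and mm10 were used, and the sources used here give no counter, annotation or strand setting. Symbols were found for 55141 of 55487 gene IDs. Counts were tested with edgeR 4.0.16 (R 4.3.3): TMM scaling, genes with a minimum count of 10 and total of 15 kept by group, 1 quasi-likelihood fit with a mean for each of the 4 groups, two-sided, and Benjamini-Hochberg adjustment over 17301 genes. The fit was tested on simulated data. DESeq2 1.42.0, limma-voom (limma 3.58.1), other filters, left-out libraries, a Bpifa2 covariate and a replicate block were alternatives. Exon lengths came from GENCODE and promoters from RefSeq GRCm38.p6. Each comparison names the 5 members with the smallest p, and levels name the 2 highest members of each class with 13 known genes; some results are not reported here. Members and lists were chosen with earlier results of these data known. Libraries of 16862953 to 24467873 counts leave low members with few reads, so limits from a count of 0 cover counting error only. An exact permutation test of 3 against 3 libraries cannot go below p = 0.1.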

Additional observations from a re-analysis of the deposited data

Results flagged for a closer look

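Kcnt1 was flagged because the libraries with and without nerve inhibition separated in opposite directions with a tumour and without one. It had been singled out with earlier results of these data known. T NDE libraries held 0.768 to 1.79 CPM against 0.296 to 0.573 CPM in T NC, and NT NDE libraries 0.312 to 0.578 CPM against 1.04 to 1.72 CPM in NT NC. The interaction was 3.01 on the log2 scale, with an edgeR adjusted p of 0.462, and missed the threshold over all genes. The highest values of T NDE and NT NC, 1.79 and 1.72 CPM, were those of the salivary libraries T NDE 3 and NT NC 3. Without the 3 salivary libraries, with NT NC 1 alone in its group, the interaction was 2.52. T NDE against T NC was 0.79 without T NDE 3, against 1.31 with it. DESeq2 called the interaction, with an adjusted p of 0.0264.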

How the results depend on the processing

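With edgeR, 0 members passed in all 7 comparisons, also with any 1 library left out (0 to 0). DESeq2 called 1 member for T NDE against T NC (Kcnk1) and 2 for the interaction (Kcnk1 and Kcnt1). Over all 17301 genes it called 44 and 43 in these comparisons, where the main edgeR fit called 0. Without a filter, edgeR called 1 member for T NDE against T NC (Kcnk1) and 12 of 30719 genes. The cause was not tested. Gene values were followed for the 5 members with the smallest p in each comparison, of which 0 passed in the main fit. Most settings share libraries with that fit, so a kept direction and side of the threshold was likely in advance. Over 35 gene values and 22 settings, 747 of 754 alternative values kept direction and side of the threshold, 4 passed it, and 3 turned sign. Those 3 were the Kcns1 interaction, 5.19 with all libraries, which was -1.93 without the 3 most salivary libraries, -0.55 without the 2, and -2.80 with a Bpifa2 covariate. With the replicate number as a block, 0 members passed and Kcnk1 gave 1.99 for T NDE against T NC. Same-numbered libraries correlated at -0.15 to 0.58 in 18 pairs, 3 of them over 0.1. The value of 0.58 was that of T NDE 3 with NT NC 3, the libraries richest in salivary RNA. Different-numbered libraries reached 0.38 (T NDE 2 with NT NC 1), so the numbers were not taken to pair libraries. Counts at an unadjusted p under 0.05 moved with single libraries: 2 to 5 for T NDE against T NC (5 without NT NC 3), and 1 to 6 for NT NDE against NT NC (1 without NT NDE 3). With all libraries, 5.83% and 10.4% of all genes were under it in these comparisons. The shares of all genes with a library left out were not counted, so the movement is not a result about these members. Members with few reads, such as Kcnt1, are limited by depth.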
